A study of Mus musculus with 6 samples.

Results

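Pre-B-only promoter regions are H3K4me3 regions at gene starts that were called in a pre-B cell line and not in a pro-T cell line. The peaks of both lines were merged where they overlapped by at least 1 bp, and a merged region was kept when it held a pre-B peak and no pro-T peak and overlapped the 2500 bp either side of any annotated transcription start site (TSS). This selection returned 3258 regions among 14572 promoter regions and among 22625 merged regions in all. Each of the 3258 regions was a single pre-B peak. The other promoter regions comprised 9672 that were shared by both lines and 1642 with a pro-T peak only. Because presence in one list and absence from the other chose the regions, the values below describe them and carry no test between the lines.

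H3K4me3 ChIP-seq was performed in 2 mouse cell lines with the same Millipore antibody, with 2 ChIP libraries and 1 input library per line. The pre-B line, 230-238, is an Abelson virus-transformed progenitor B line. The pro-T line, Scid.adh.2C2, is a T cell progenitor line of DN3 type, a subclone of Scid.adh, which came from a spontaneous thymic lymphoma of a mouse on the CB17-Prkdc scid background. The labels name no treatment for either line. Each lineage is represented by 1 transformed line, so that lineage, transformation and the history of the clone cannot be told apart. For each line, 1 peak list combining both replicates was analysed, with 19604 peaks for pre-B and 15513 for pro-T. Neither list gives values for the single replicates or numbers of reads, so that depth and the spread between replicates are unknown. A region without a pro-T peak is a region at which no peak passed the thresholds, and its pro-T signal was not measured here.

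H3K4me3, the trimethylation of lysine 4 on histone H3, is deposited by SET1 and MLL complexes around the start sites of active and poised genes and is recognised by readers that help to recruit the transcription machinery. Promoters dense in CpG dinucleotides attract these complexes through CXXC-domain proteins and carry the mark in most cell types. Promoters poor in CpG usually gain it only where sequence-specific factors activate the gene. In pre-B cells such factors include EBF1 and PAX5, which switch on the components of the pre-B cell receptor.

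The promoters behind the regions differed strongly in CpG content, and the following sequences, read from the GRCm38 genome, show both ends of that range with each CpG in capitals. Each is written 5′ to 3′ on the strand of the gene, lies within 250 bases upstream of the TSS nearest to the summit, and leaves out any annotated exon. The first 5 are CpG-rich. They belong to Nufip2 (chr11:77685922-77686154, plus strand), Klf9 (chr19:23140976-23141225, plus strand), Casz1 (chr4:148900899-148901148, plus strand), Myc (chr15:61986784-61987033, plus strand) and Il3ra (chr14:14346025-14346274, plus strand), and they hold 20, 18, 39, 17 and 24 CpG.
Nufip2: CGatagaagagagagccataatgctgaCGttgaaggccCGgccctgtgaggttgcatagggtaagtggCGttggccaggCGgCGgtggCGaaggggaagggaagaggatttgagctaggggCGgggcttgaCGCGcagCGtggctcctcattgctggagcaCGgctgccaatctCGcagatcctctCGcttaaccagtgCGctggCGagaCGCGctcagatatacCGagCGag
Klf9: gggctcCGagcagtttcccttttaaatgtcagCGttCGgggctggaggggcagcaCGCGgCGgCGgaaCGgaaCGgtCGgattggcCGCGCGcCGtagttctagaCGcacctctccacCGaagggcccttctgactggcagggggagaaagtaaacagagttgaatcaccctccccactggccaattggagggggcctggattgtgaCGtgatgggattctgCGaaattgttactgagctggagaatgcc
Casz1: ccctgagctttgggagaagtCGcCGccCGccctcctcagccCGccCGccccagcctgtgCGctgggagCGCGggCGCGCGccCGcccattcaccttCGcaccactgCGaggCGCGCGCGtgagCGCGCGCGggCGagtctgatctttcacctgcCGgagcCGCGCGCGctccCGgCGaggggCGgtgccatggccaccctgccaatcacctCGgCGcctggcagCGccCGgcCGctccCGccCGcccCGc
Myc: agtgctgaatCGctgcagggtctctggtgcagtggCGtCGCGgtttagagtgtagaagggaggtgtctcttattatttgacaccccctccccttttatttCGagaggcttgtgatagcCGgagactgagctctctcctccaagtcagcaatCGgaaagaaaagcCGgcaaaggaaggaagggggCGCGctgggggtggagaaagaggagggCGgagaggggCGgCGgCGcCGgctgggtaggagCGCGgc
Il3ra: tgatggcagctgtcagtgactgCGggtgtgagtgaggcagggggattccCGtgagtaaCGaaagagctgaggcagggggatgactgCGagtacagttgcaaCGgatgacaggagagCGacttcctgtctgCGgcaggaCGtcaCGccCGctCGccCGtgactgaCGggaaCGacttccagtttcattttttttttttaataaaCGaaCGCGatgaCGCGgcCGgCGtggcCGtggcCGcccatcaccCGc

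The next 5 are CpG-poor at the TSS used and come from genes of B cell and innate function. They are Cd79a (chr7:24897131-24897380), Irf8 (chr8:120738389-120738638), Vpreb2 (chr16:17980178-17980427), Mef2c (chr13:83524041-83524290) and Tlr4 (chr4:66827952-66828201), all on the plus strand, with 6, 8, 0, 2 and 2 CpG in 250 bases each. At Irf8, Mef2c and Tlr4 this TSS lay 2281, 20257 and 618 bp from the most upstream annotated TSS of the gene, whose bases are not shown. Among the CpG-rich sequences above, the same held for Casz1 (96720 bp) and Myc (1643 bp).
Cd79a: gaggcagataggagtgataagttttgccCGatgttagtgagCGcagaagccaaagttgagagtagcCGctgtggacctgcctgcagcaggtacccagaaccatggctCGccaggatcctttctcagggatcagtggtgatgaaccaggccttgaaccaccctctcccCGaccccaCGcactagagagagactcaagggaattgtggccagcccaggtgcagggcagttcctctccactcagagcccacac
Irf8: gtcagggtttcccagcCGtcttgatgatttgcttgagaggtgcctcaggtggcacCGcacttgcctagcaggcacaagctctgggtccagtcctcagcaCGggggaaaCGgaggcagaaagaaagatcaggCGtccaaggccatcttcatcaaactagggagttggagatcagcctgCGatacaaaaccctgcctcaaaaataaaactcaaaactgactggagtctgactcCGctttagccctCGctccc
Vpreb2: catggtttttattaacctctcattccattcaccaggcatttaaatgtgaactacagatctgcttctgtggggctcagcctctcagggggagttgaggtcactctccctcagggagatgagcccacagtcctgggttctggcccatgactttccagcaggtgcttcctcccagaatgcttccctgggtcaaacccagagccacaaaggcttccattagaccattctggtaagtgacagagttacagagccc
Mef2c: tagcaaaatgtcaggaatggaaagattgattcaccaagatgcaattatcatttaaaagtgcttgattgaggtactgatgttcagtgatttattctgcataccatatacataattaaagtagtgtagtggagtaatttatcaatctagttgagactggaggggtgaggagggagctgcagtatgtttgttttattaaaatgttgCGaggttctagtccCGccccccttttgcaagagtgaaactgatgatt
Tlr4: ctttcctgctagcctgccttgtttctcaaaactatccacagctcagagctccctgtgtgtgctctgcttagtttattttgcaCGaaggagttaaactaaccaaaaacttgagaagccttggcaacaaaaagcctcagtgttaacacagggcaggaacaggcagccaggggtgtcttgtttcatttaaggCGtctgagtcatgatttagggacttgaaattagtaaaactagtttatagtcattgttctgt

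The labels were checked against marker genes. A pre-B-only promoter region was present at 10.4% of all protein-coding genes, and 5.85% had one and no pro-T peak in any promoter window. Of 12 B cell markers, 12 had such a region, and 8 of these had no pro-T peak in any promoter window. They included the transcription factor genes Ebf1 (26.1-fold) and Pax5 (21.4-fold) and the receptor chain genes Cd79a (27.9-fold) and Cd79b (29.0-fold). The other 4, Vpreb1, Cd72, Pou2af1 and Spib, also had a pro-T peak elsewhere in a promoter window. Of 12 T cell markers, 7 were in the pro-T list only, 4 (Cd3d, Tcf7, Lck and Zap70) had peaks in both lists, and Cd5, which is also known from subsets of B cells, had a peak in the pre-B list only. By the measure used for the B cell markers, 3 T cell markers had a pre-B-only promoter region, which were Cd3d (12.9-fold), Lck (13.1-fold) and Cd5 (9.50-fold). All 8 myeloid markers, among them Csf1r, Mpo and Cebpa, were in neither list.

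The pre-B-only promoter regions were weaker and narrower than the shared ones. Fold enrichment over input, as given by the peak caller, had a median of 11.6 with quartiles of 8.29 and 17.4 and a range from 2.2 to 37.8. Shared promoter regions had a median of 20.7 in the same pre-B list. The pre-B peak had a median width of 1329 bp, from 193 to 10200 bp, against 2131 bp for the pre-B peak of the shared regions. The pro-T-only regions also stood below the shared ones in their own list, with medians of 11.5-fold against 25.7-fold and 1066 bp against 1928 bp. The highest IDR score of 1000, which marks the best agreement of ranks between the replicates, was given to 91.0% of the regions and to 98.1% of the shared ones. At least 10-fold enrichment was reached by 60.5% (95% Wilson interval 58.8% to 62.2%) and by 95.2%. Wilson intervals here and below cover counting error only, and neighbouring regions are not independent.

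Among the 12930 promoter regions with a pre-B peak, 25.2% (24.5% to 26.0%) had no pro-T peak, and this share depended on how strong the region was. It was 77.4% in the weakest decile by fold, below 8.93-fold, and 33.6% in the third decile. In the 3 strongest deciles it was 8.89%, 8.66% and 8.66%. The strongest decile, from 27.5-fold on, still held 112 regions without a pro-T peak. The regions of high fold also had a different base composition. The share with a CpG-rich TSS window was 25.0% in the weakest decile and 69.6% in the strongest, while that of the shared regions was 50.3% and 84.0%.

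**Figure D1:**
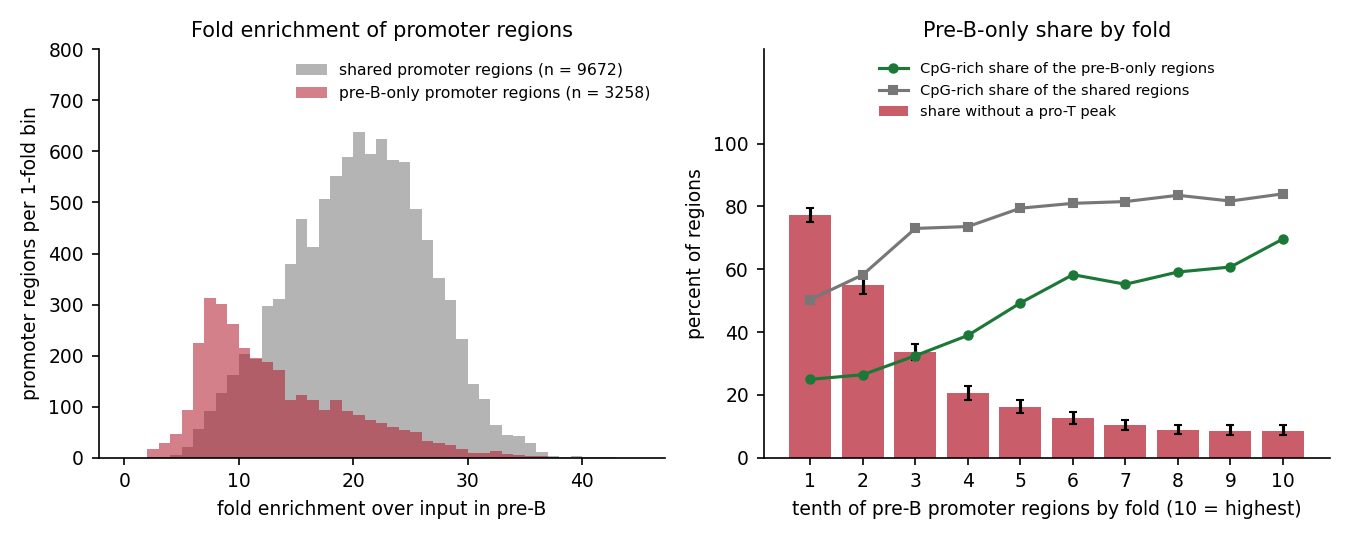
The left panel shows the number of promoter regions per 1-fold bin of pre-B fold enrichment over input for 3258 pre-B-only and 9672 shared regions, with medians of 11.6 and 20.7. The right panel shows, for deciles of the 12930 pre-B promoter regions by fold, the percent without a pro-T peak (bars with 95% Wilson intervals), which went from 77.4% to 8.66%, and the percent with a CpG-rich TSS window among pre-B-only regions (circles) and shared regions (squares).

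The 20 regions of highest fold lay between ranks 10 and 157 of the 19604 peaks of the list, 17 of them had a CpG-rich TSS window, and 15 belonged only to genes with no pro-T promoter peak. As stated above, promoters dense in CpG carry the mark in most cell types. Whether the pro-T line lacks the mark at these regions was not tested, since its signal was not measured here. Nufip2, for an RNA-binding partner of FMRP, led with 37.8-fold, followed by Ppp1r15a, for a regulatory subunit of the phosphatase acting on eIF2 alpha, with 36.5-fold. The iron-sulfur cluster gene Bola2 (36.5-fold), the splicing factor gene U2af2 (36.2-fold), the Kruppel-like factor gene Klf9 (36-fold) and the splicing factor gene Sf3b5 (35.5-fold) came next. The Sf3b5 region was only 458 bp wide, with its summit upstream of the TSS and outside annotated genes. Its TSS window was CpG-poor (0.377 observed over expected), and the gene had a pro-T promoter peak. Scamp3 (35.4-fold) and Vps8 (35-fold), of membrane traffic, Rsad1 (34.9-fold), of the radical SAM proteins, Kifap3 (34.6-fold), for a kinesin-associated protein, and Smad7 (34.6-fold), an inhibitor of TGF-beta signaling, completed the upper part of the group. The remaining 9 had 33.1-fold to 34.5-fold and were Casz1, a zinc finger factor, Hs3st1, of heparan sulfate synthesis, Emc2, of the endoplasmic reticulum membrane complex, Nsmce2, a SUMO ligase, the transporters Slc39a14 and Slc6a9, the guanine nucleotide exchange factor gene Arhgef12, the helicase gene Dhx40 and the noncoding transcript AC163635.1. An IDR score under 1000 was given to 3 of the 20, which were Nufip2 (779), Scamp3 (918) and Rsad1 (919).

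Distance to the nearest pro-T peak varied widely within these 20. The Hs3st1 region was 1075598 bp from the nearest pro-T peak and the Smad7 region 319691 bp, whereas AC163635.1 was 793 bp and Ppp1r15a 2077 bp away. In all, 209 of the 3258 regions (6.41%) reached 25-fold, of which 168 were at genes with no pro-T promoter peak, and 113 of those 168 were CpG-rich.

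By width, Man1a, for a mannosidase of the Golgi, came first with 10200 bp, and Irf8, for an interferon regulatory factor that acts with PU.1 in B and myeloid cells, followed with 10000 bp. Bcl11a, a zinc finger factor needed for B cell development, spanned 9498 bp, and the MADS-box factor gene Mef2c spanned 9439 bp. The zinc finger gene Zfp608 (8041 bp), Akna (8002 bp), the gene model Gm45021 (7912 bp), the DNA polymerase subunit gene Pole2 (7898 bp) and the helix-loop-helix repressor gene Bhlhe41 (7660 bp) were also among the 10. Of these 10, 9 were at genes with no pro-T promoter peak, 4 were CpG-rich, and fold enrichment ran from 14.3 at Mef2c to 31.2 at Zfp608. Width and height were thus not the same ranking, as Nufip2, first by fold, spanned 4244 bp. At least 5000 bp was spanned by 79 regions, 63 of them at genes with no pro-T promoter peak. At the other end, 322 regions were under 500 bp, and 134 of those were at such genes.

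Of the 3258 regions, 2033 (62.4%, 60.7% to 64.0%) touched promoter windows only of genes that had no pro-T peak in any of their windows. The other 1225 (37.6%) touched a gene that carried a pro-T peak elsewhere in a window, either beside the region or at another TSS. This count depended on the settings, with 369 when peaks less than 5000 bp apart were merged, 548 with pre-B peaks of at least 10-fold and 1946 with windows of 5000 bp. The regions of the first kind had a median fold of 13.2 and a median width of 1499 bp. Those of the second kind had 9.41-fold and 1090 bp. A pro-T peak lay less than 1000 bp away for 455 regions (14.0%), of which 1 was at a gene with no pro-T promoter peak, and the median distance to a pro-T peak was 20778 bp over all regions. The 3 with the closest pro-T peak were Snrpd1 (1 bp between the peaks, 6.27-fold), Tarbp2 (2 bp, 25.0-fold) and Hist1h4j (12 bp, 8.62-fold).

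At the limit of the promoter window, the 3 regions just inside were at Gm13647 (2500 bp from the TSS, 6.05-fold), Pdcd4 (2499 bp, 6.30-fold) and Gm37820 (2497 bp, 21-fold). Among those just outside were Rer1 (2505 bp, 6.05-fold) and Xdh (2505 bp, 7.42-fold). Of all 7710 pre-B-only regions of the genome, 42.3% were at promoters, against 88.3% of the 10951 shared regions.

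Relative to the nearest TSS, the regions were less tightly placed than the shared ones. The summit lay within 1000 bp of it in 60.7% of the regions and in 91.3% of the shared regions. The median summit was 158 bp downstream of the TSS, with quartiles of -478 and 790 bp, and 60.2% of summits were downstream. An annotated TSS was inside 50.7% of the regions. Summits were in exons in 24.6%, in introns in 55.8% and outside annotated genes in 19.6% of the regions. The gene of the nearest TSS was protein-coding for 2602 regions (79.9%, against 95.5% of shared regions), a lincRNA for 226, a processed pseudogene for 104 and an antisense transcript for 79.

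Genes were then examined by function. Of 21951 protein-coding genes, 2281 (10.4%) had a pre-B-only region in a promoter window, and 1285 (5.85%) had one and no pro-T peak in any window. These are the backgrounds for the counts of gene lists below. No peak in either line was found at 10662 of the 21951 genes, and the share of a list also depends on how many of its genes were marked at all. The lists were chosen with earlier results of these data known, and the B-lineage and T-lineage lists of the study were chosen by the study from expression, so that their direction is no independent evidence.

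Components of the pre-B cell receptor and its signaling had the highest share among the lists of at least 25 genes. Of 30 genes, 22 (73.3%, 55.6% to 85.8%) had a pre-B-only promoter region, 18 of them without a pro-T promoter peak, and the median fold of the highest region per gene was 16.4. The signaling chain genes Cd79b (29.0-fold over 3785 bp) and Cd79a (27.9-fold over 5606 bp), the gene of the Src-family kinase Lyn (27.3-fold) and the phospholipase gene Plcg2 (23.6-fold) were among the highest. The Cd79a region had an IDR score of 639, lower than the 1000 of the other 3, and also reached a promoter window of Arhgef1, a gene that has a shared region of 26.0-fold in pre-B. Vpreb2, which encodes a part of the surrogate light chain, had 21-fold, and the adaptor gene Blnk had 20.9-fold over 6915 bp. The other surrogate light chain genes were lower, with 8.79-fold at Igll1 and 9.03-fold at Vpreb1. In this list, 5 genes had shared regions only, among them Btk and Vav1, and 3 had no peak in either line, among them Rasgrp3 and Siglecg. The genes in this paragraph outside the 6 of highest fold were chosen after their values were seen, apart from the markers.

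Among 28 B-lineage transcription factors, 14 had a pre-B-only region (50.0%, 32.6% to 67.4%) and 8 of them had no pro-T promoter peak. Irf8 (28.9-fold), the BTB repressor gene Bach2 (26.3-fold), Ebf1 (26.1-fold), the E protein gene Tcf4 (21.9-fold) and Pax5 (21.4-fold) were of that kind. Spi1, for PU.1, had a pre-B-only region of 21.9-fold and also a shared region of 6.85-fold in pre-B and 7.09-fold in pro-T. Some of these genes held several regions, with 7 at Tcf4 and 4 each at Pax5 and Mef2c. Another 12 were marked in both lines only, such as Ikzf1 (33.1-fold in pre-B), Tcf3 (27.4-fold), Foxo1 (25.5-fold) and Irf4 (25.2-fold), while Ets1 had a pro-T region only. At Pou2af1 and Spib the pre-B-only regions were weak (7.63-fold and 6.85-fold) and stood beside shared regions of 22.6-fold and 17.1-fold.

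Surface molecules of B cells had a pre-B-only region at 15 of 25 genes (60.0%), 11 without a pro-T promoter peak. Cd81, a tetraspanin, had the highest with 30.1-fold and a shared region of 15.6-fold in pre-B and 27.2-fold in pro-T as well. The BAFF receptor gene Tnfrsf13c had 28.3-fold, followed by the ectoenzyme genes Enpep (24.9-fold), which encodes the BP-1 antigen of early B cells, and Bst1 (24.3-fold), and Cd180 (19.2-fold). No peak in either line was found at 6 genes, among them Ms4a1, Cr2 and Fcer2a, which are known from mature B cells.

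MHC class II genes had a pre-B-only region at 9 of 12 genes (75%, 46.8% to 91.1%), 8 of them without a pro-T promoter peak. The class II transactivator gene Ciita had 23.2-fold over 4595 bp. Its targets followed with 22.4-fold at H2-DMb2, 19.7-fold at H2-Eb1, 17.8-fold at H2-Ob and 17.4-fold at H2-Aa. The protease gene Ctss, which cleaves the invariant chain, had 14.6-fold, and the invariant chain gene Cd74 had 13.3-fold. H2-DMa (30.0-fold in pre-B and 32.7-fold in pro-T) and H2-Oa were shared, so that the regions of this locus were not uniform. The stretch of chromosome 17 with H2-Ob, H2-Ab1, H2-Aa, H2-Eb1, H2-Eb2 and Btnl1 held 7 pre-B-only regions, each less than 50000 bp from the next, and 2 regions with a pro-T peak.

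Innate sensing genes had a pre-B-only region at 11 of 29 (37.9%, 22.7% to 56.0%), 9 without a pro-T promoter peak. The kinase gene Map3k8 (30.9-fold over 6794 bp), the adaptor genes Tirap (29.5-fold) and Tifa (29.1-fold), the sensor gene Nod2 (22.9-fold), Irf5 (22.6-fold) and the lipopolysaccharide receptor gene Tlr4 (17.7-fold over 7040 bp) were the highest. Of the other Toll-like receptors, Tlr9 had 12.5-fold, and Tlr2, Tlr3, Tlr5, Tlr7, Tlr8, Tlr11, Tlr12 and Tlr13 had no peak in either line. Tlr1 had a pro-T region only (7.73-fold), and Tlr6 had a shared region (11-fold in pre-B and 19.8-fold in pro-T). The adaptor gene Myd88 (12.8-fold in pre-B and 33.0-fold in pro-T) and the kinase gene Irak4 were marked in both lines. The genes beyond the 6 highest were chosen after their values were seen.

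Cytokine receptors had a pre-B-only region at 12 of 35 genes (34.3%, 20.8% to 50.8%), 10 without a pro-T promoter peak. The alpha chain of the IL-3 receptor, Il3ra, had the highest with 28.0-fold, and that of the GM-CSF receptor, Csf2ra, had 22.9-fold. Their common beta chain, Csf2rb, had 18.9-fold, so that the chains of this receptor family were marked together in the pre-B list. Il4ra (19.9-fold), Tgfbr2 (19.9-fold) and Il21r (19.4-fold) were the others among the 6 highest. The receptors of IL-7 were not in the group, since Il7r and Il2rg had shared regions, and Il2ra, known from DN2 and DN3 T cell progenitors, had a pro-T region only.

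Genes of growth, survival and Stat5 feedback had a pre-B-only region at 11 of 30 (36.7%, 21.9% to 54.5%), 7 without a pro-T promoter peak. Myc reached 31.9-fold over 6600 bp and Mycn 25.0-fold over 5422 bp. Socs1, a feedback inhibitor of JAK kinases, had 22.3-fold over 7234 bp, the cyclin gene Ccnd2 had 20.4-fold, and Cish, another target of STAT5, had 17.4-fold. Bcl2l1, for the survival factor Bcl-xL, had 19.7-fold beside a shared region of 25.7-fold. At Abl1, the cellular counterpart of the oncogene used to transform the line, there were 2 weak pre-B-only regions, the higher of 6.70-fold, beside a shared region of 21.4-fold. Most other members of the list, such as Stat5a, Jak1, Mcl1 and Ccnd3, were marked in both lines. The last 5 genes were named after their values were seen.

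Homing receptors and integrins had a pre-B-only region at 8 of 28 genes (28.6%, 15.3% to 47.0%), 5 without a pro-T promoter peak. The sphingosine 1-phosphate receptor gene S1pr1 had 30.6-fold, the chemokine receptor gene Cxcr4 had 16.5-fold and Ccr7 had 13.4-fold, the last with a shared region of 16-fold too. Itga6 (9.53-fold), Lpar1 (9.41-fold) and Itgb1 (8.15-fold) completed the 6 highest.

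**Figure D2:**
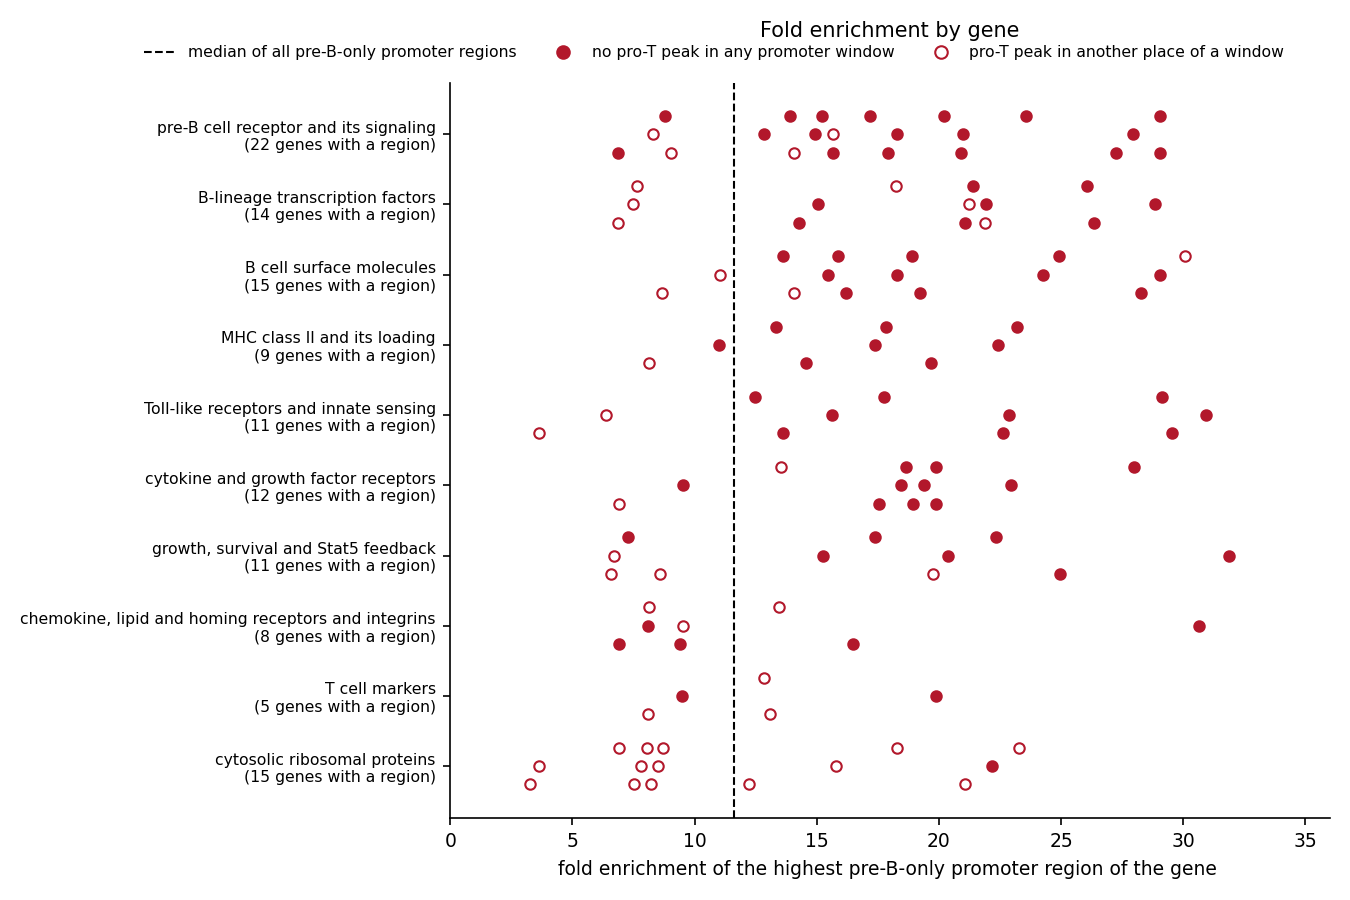
Each point is a gene of the list on the left, placed by the fold enrichment over input of its highest pre-B-only promoter region, and filled where the gene had no pro-T peak in any promoter window. Points are set on 3 levels per list for legibility only, and the dashed line is the median of all 3258 regions, 11.6, which most filled points of the B cell lists exceed while most ribosomal protein genes lie below it.

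The lists that were not of B cell function gave a wide range of counts. Of 26 T cell markers, 5 had a pre-B-only region (19.2%, 8.51% to 37.9%), and 2 of them had no pro-T promoter peak. These 2 were the receptor genes Cd6 (19.9-fold) and Cd5 (9.50-fold), which are neighbours on chromosome 19. The regions at Lck (13.1-fold, 272 bp wide), Cd3d (12.9-fold, 447 bp wide) and Notch3 (8.08-fold, 383 bp wide) were narrow and accompanied a pro-T peak at the same gene. Among 25 myeloid markers there were 3, with Csf2ra (22.9-fold) alone lacking a pro-T promoter peak, and Spi1 and Fcer1g (11.9-fold) carrying one. Another 3 had shared regions only, which were Cd68 (26.5-fold in pre-B), Cebpe (17.3-fold) and Prtn3 (7.34-fold). A pro-T region only was found at 2, Cebpb and Fcgr3, and 17 had no peak in either line.

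Of 80 cytosolic ribosomal protein genes, which are expressed in all growing cells, 15 had a pre-B-only region (18.8%), and only Rps15 (22.2-fold) had no pro-T promoter peak. That is 1.25% of the list against the background of 5.85%. The other 14 genes also had a shared region, and their pre-B-only regions were led by Rpl27 (23.3-fold), Rpl3 (21.1-fold), Rps14 (18.3-fold), Rpl11 (15.8-fold) and Rpl24 (12.2-fold). Zinc finger genes named Zfp had 35 of 394 (8.88%), with Zfp110 (31.9-fold), Zfp608 (31.2-fold), Zfp296 (25.1-fold), Zfp429 (24.9-fold), Zfp467 (24.4-fold) and Zfp729b (24.0-fold) highest. The share of the list without a pro-T promoter peak was 5.84%, near the background. However, 97 of the 394 had no peak in either line, against 10662 of the 21951 protein-coding genes.

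Developmental homeobox and related factors had 11 of 120 (9.17%), of which 10 had no pro-T promoter peak (8.33%). After Pax5 these were Lhx9 (16.5-fold), Sox15 (16.5-fold), Sox8 (15.6-fold), Tbx19 (15.4-fold) and Lhx2 (14.6-fold), factors best known from tissues other than blood. Lhx9 was the one with a pro-T peak. Olfactory receptor genes, which are silent outside sensory neurons, had 5 of 1135 (0.441%), all at or under 12-fold. The highest, Olfr56, was accompanied by a shared region of 22.3-fold, and the others were Olfr149, Olfr1509, Olfr266 and Olfr984. No peak in either line was found at 1127 of the 1135 olfactory receptor genes and at 96 of the 120 developmental factors. The low shares of these lists thus go with few marked genes.

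The list of small GTPase regulators, which also holds Rgs1, a regulator of G protein signaling, had 20 of 99 (20.2%, 13.5% to 29.2%), 13 without a pro-T promoter peak. Arhgef12 (33.2-fold), Arhgef1 (27.9-fold, through the Cd79a region), Dock9 (27.7-fold), Arhgap9 (25.8-fold), Arhgap21 (24.3-fold) and Rgs1 (23.7-fold), which restrains chemokine receptors in B cells, were highest. Dual-specificity phosphatases, some of which switch off MAP kinases, had 5 of 24 (20.8%), namely Dusp4 (23.9-fold), Dusp3 (22.6-fold), Dusp16 (15-fold), Dusp23 (11.8-fold) and Dusp13 (6.35-fold). Solute carriers had 54 of 371 (14.6%, 11.3% to 18.5%), with Slc39a14, Slc6a9, Slc16a6 (27.3-fold), Slc25a40 (26.9-fold), Slc35e4 (25.3-fold) and Slc35d2 (23.6-fold) highest.

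In the B-lineage list of the study, 122 of 247 genes had a pre-B-only region (49.4%, 43.2% to 55.6%) and 90 of them had no pro-T promoter peak (36.4%). The 6 of highest fold were the sialyltransferase gene St6gal1 (32.5-fold), Map3k8, S1pr1, 1700027J07Rik (29.9-fold), Atp1b1 (29.8-fold), for a subunit of the sodium pump, and the acyltransferase gene Gpat3 (29.7-fold). In the T-lineage list, 40 of 229 had one (17.5%, 13.1% to 22.9%) and 27 of these had no pro-T promoter peak (11.8%), shares above both backgrounds. They were led by Myl10 (28.4-fold), Synj2 (28.0-fold), Arhgap9, 5830418P13Rik (24.0-fold), Socs1 and Dzip1 (21.6-fold).

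**Figure D3:**
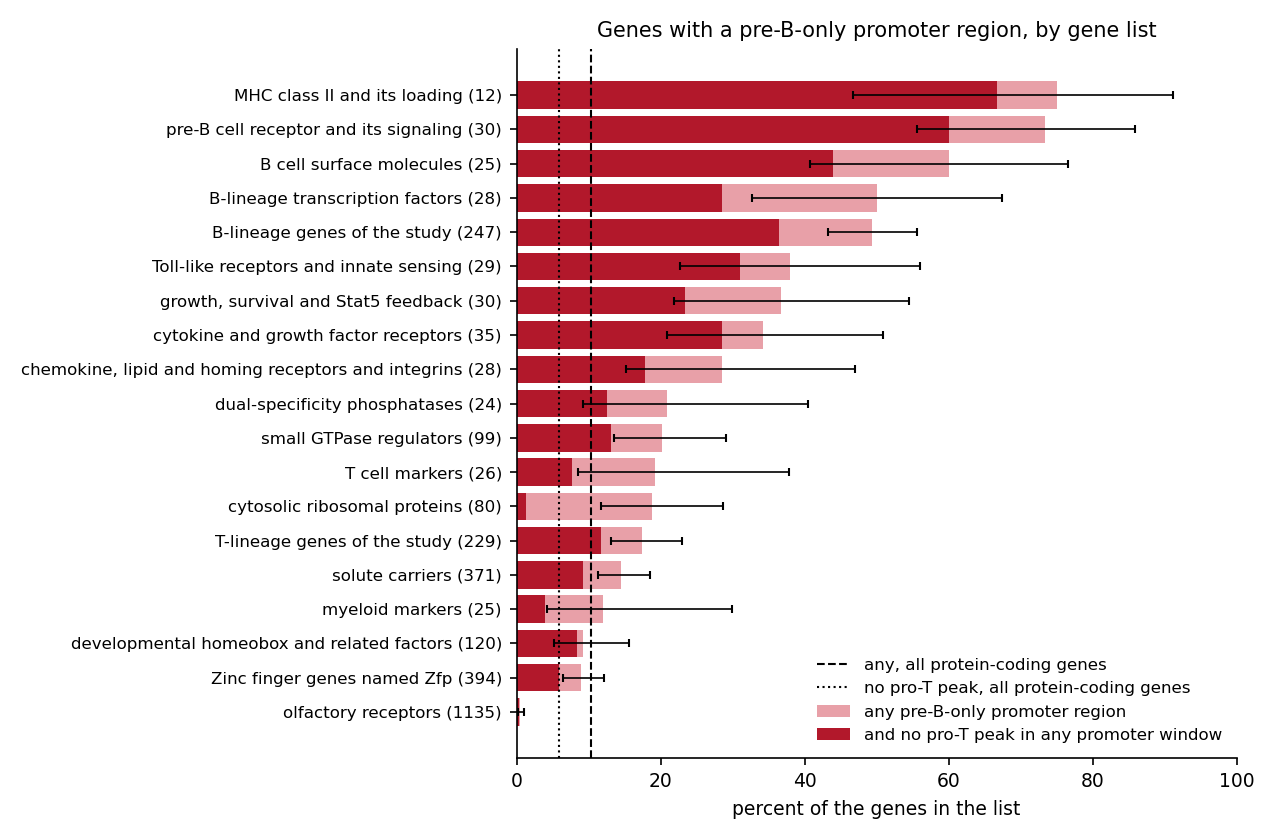
Bars give the percent of genes of each list (number of genes in parentheses) with a pre-B-only promoter region, the dark part those with no pro-T peak in any promoter window, and error bars the 95% Wilson interval of the whole bar. The dashed line is 10.4% and the dotted line 5.85%, the same shares over all protein-coding genes. MHC class II genes (75%) and the pre-B cell receptor list (73.3%) stand at the top and olfactory receptors (0.441%) at the bottom. Of the 1135 olfactory receptor genes, 1127 had no peak in either line.

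Antigen receptor loci also carried pre-B-only regions. The immunoglobulin kappa locus had 10 at segments with an Igkv name, from 6.16-fold to 27.3-fold, the highest over 5687 bp at a variable segment, and 1 of 8.04-fold at the variable pseudogene Gm43586. The heavy chain locus had 1 of 22.8-fold over the Ighj1 to Ighj4 segments, with a pro-T peak 532 bp away that lay in a promoter window of a gene the region touches. T cell receptor loci were not free of them. The gamma locus held 9 regions from 7.11-fold to 18.9-fold, at Tcrg-V4 and around the constant segments Tcrg-C1, Tcrg-C2 and Tcrg-C3, with no region holding a pro-T peak among them. The alpha locus held 4, from 5.85-fold to 13.7-fold, and the beta locus 1. The segments of each locus are close copies of one another, so that the assignment of short reads to a given segment is uncertain, and both lines may have rearranged these loci. These genes were chosen after their values were seen.

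Some regions lay in groups. When regions less than 50000 bp apart were joined, the largest group was on chromosome 6 from 48674789 to 48818421 with 10 regions at the Gimap genes, GTPases of lymphocytes, from 6.13-fold to 24.1-fold. Its highest regions were at Gimap4 (24.1-fold) and Gimap1 (21.9-fold), and 3 regions with a pro-T peak lay between them. A group of 8 on chromosome 4 from 134052017 to 134107507 covered Cd52, which encodes a glycoprotein of lymphocytes, with Ubxn11, Zfp683 and Crybg2. On chromosome 7, from 104245488 to 104369854, 7 regions lay at Trim5, Trim12a, Trim12c, Trim30b and Trim34a, antiviral TRIM genes that are near-identical copies in part, with the highest of 23.3-fold at Trim5. By chromosome, the share of pre-B promoter regions without a pro-T peak was 33.3% on chromosome 1 (30.0% to 36.7%) and 16.3% on chromosome X (12.9% to 20.3%), and it was 20.1% to 28.8% on the other autosomes.

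At some genes the region lay away from a promoter region that both lines marked. Whether it was a second promoter was not tested. There were 388 regions at 307 genes for which a shared region of the same gene lay at least 5000 bp away, at a median distance of 20303 bp. Most lay downstream of the shared region (306, against 82 upstream). Their median fold of 10.5 was below the 20.5 of the shared regions in the pre-B list, 16% were CpG-rich, and 58 were higher in fold than the shared region. The highest of these, named after their values were seen, were Cd81 (30.1-fold, 10906 bp upstream of the shared region), the histone deacetylase gene Hdac5 (29.8-fold, 8922 bp upstream), Rabgap1l (29.5-fold, 478586 bp upstream), Tmem151a (29.4-fold, 15348 bp downstream) and the ectonucleotidase gene Entpd1 (28.9-fold, 47231 bp downstream). At Nfkb1 a region of 23-fold lay 78167 bp downstream of a shared region of 10.3-fold in pre-B and 25.6-fold in pro-T.

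CpG content at the TSS set the regions apart from shared promoters. It was computed as observed over expected CpG in the 300 bases from 250 before to 50 from the TSS on, and windows of at least 0.6 were called CpG-rich. The window follows the TSS and can lie outside the marked DNA. The summit was within 1000 bp of the TSS in 60.7% of the regions, against 91.3% of the shared ones. Of 171 bases read upstream of the Pax5 TSS, 3 were inside its 21.4-fold region. The median was 0.427 in the pre-B-only regions (95% interval of the median 0.403 to 0.446), 0.809 in the shared regions and 0.476 in the pro-T-only regions. CpG-rich windows made up 35.9% (34.3% to 37.5%), 77.9% and 40.1%, and 44.4% of 21938 protein-coding genes taken at their most upstream TSS. The regions at genes with no pro-T promoter peak had almost the same share (36.7%) as those at genes with one (34.5%). The B cell genes named above spanned the whole range, from 0 at Vpreb2, 0.118 at Cd79b and 0.284 at Cd79a to 0.692 at Pax5, 0.915 at Bach2 and 1.00 at Myc. Cd79b and Bach2, far apart in CpG content, differed little in fold or width (29.0-fold over 3785 bp and 26.3-fold over 3805 bp). Over all the regions, however, the CpG-rich share rose with fold, from 25.0% in the weakest decile to 69.6% in the strongest.

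**Figure D4:**
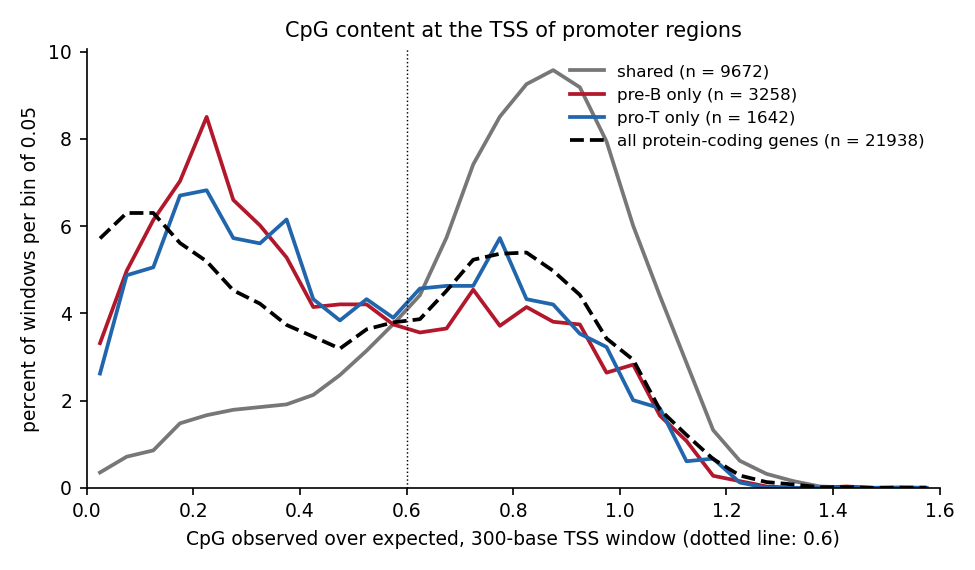
Lines show the percent of 300-base TSS windows per bin of 0.05 in observed over expected CpG for the 3 classes of promoter regions and for all protein-coding genes (dashed). The shared regions have a single mode to the right of 0.6, while the pre-B-only and pro-T-only regions have most windows to the left of it, with medians of 0.427 and 0.476.

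Motifs were searched in the same windows on both strands, within CpG-rich and CpG-poor windows separately, since many motifs contain CpG. The EBF core TCCCNNGGG was in 11% (9.37% to 13%) of the 1169 CpG-rich windows, against 7.93% of the shared, 8.5% of the pro-T-only and 8.37% of all protein-coding CpG-rich windows. In the 2089 CpG-poor windows it was in 8.09%, against 8.12%, 5.39% and 7.21%. The PU.1 box GAGGAAG was in 19.4% (17.7% to 21.1%) of the CpG-poor windows, against 16.9% of the shared, 16.2% of the pro-T-only and 14.9% of all. In the CpG-rich windows it was in 13.3% (11.4% to 15.3%), against 12.7%, 10.9% and 11.5%. The octamer ATGCAAAT was rare in every class. It was in 2.22% (1.52% to 3.24%) of the CpG-rich windows, against 1.24% (1.01% to 1.51%) of the shared, 0.91% of the pro-T-only and 1.21% of all. In the CpG-poor windows it was in 2.39%, against 1.87%, 2.03% and 1.86%. The pro-T-only intervals overlapped the pre-B-only ones for the EBF core (6.60% to 10.9%) and the octamer (0.418% to 1.97%) in CpG-rich windows. They also overlapped for the PU.1 box in CpG-poor windows (14.0% to 18.6%). For the EBF core in CpG-poor windows the intervals only just separated, at 7.00% to 9.34% for pre-B-only and 4.15% to 6.99% for pro-T-only.

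Motifs of broadly acting factors differed in direction against the shared promoters. The GC box GGGCGG, bound by SP factors, was in 75.8% (73.3% to 78.2%) of the CpG-rich windows, against 74.6% of the shared and 71.9% of the pro-T-only, and in 20.1% of the CpG-poor windows, against 33.6% and 19.8%. The ETS motif CCGGAAG was in 10.9% (9.29% to 12.9%) of the CpG-rich windows, against 22.6% of the shared, 12.9% (10.6% to 15.7%) of the pro-T-only and 19.4% of all. The NF-Y motif CCAAT was in 31.9% and 31.8% of the CpG-rich and CpG-poor windows, against 36.2% and 38.9% of the shared and 36.9% and 34.8% of the pro-T-only. The cyclic AMP response motif TGACGT was in 10.4% of the CpG-rich windows, against 13.9% of the shared and 10.8% of the pro-T-only. The TATA motif TATAAA was in 13.3% of the CpG-poor windows, against 8.68% of the shared, 12.9% of the pro-T-only and 18.1% of all. The GATA motif AGATAA was in 12.5% (11.2% to 14.0%) of the pre-B-only and 14.2% (12.2% to 16.6%) of the pro-T-only CpG-poor windows, intervals that overlap. In all, 20 motifs were searched, the intervals are not adjusted for their number, and a match describes letters in a window and not the binding of a factor.

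**Figure D5:**
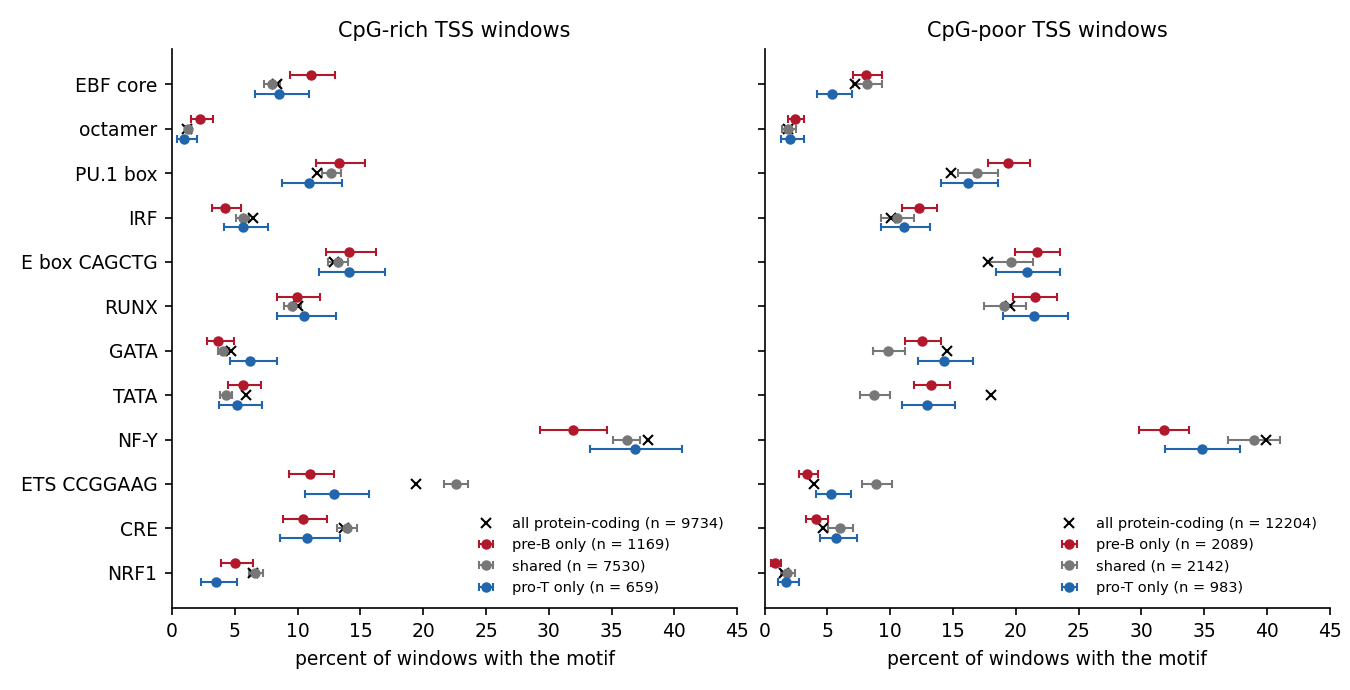
Points give the percent of CpG-rich (left) and CpG-poor (right) TSS windows with each of 12 motifs in pre-B-only, shared and pro-T-only promoter regions, with 95% Wilson intervals, and crosses give all protein-coding genes. The ETS motif is at 10.9% of the pre-B-only and 22.6% of the shared CpG-rich windows, and the EBF core at 11% and 7.93%.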

How the data were processed

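H3K4me3 peaks of 2 mouse cell lines were analysed. According to the submitters' processing notes and the study's methods, the reads were cleaned with Trim Galore 0.6.7 and aligned to mm10 (GRCm38) by Bowtie2 2.4.4. Narrow peaks over the input of the same line came from MACS2 2.2.7.1 at a q-value of 0.05, and an irreproducible discovery rate (IDR) of 0.05 between 2 replicates selected 1 list per line. The fold enrichment ratio, the IDR score and the −log10 p-value of the peaks, as deposited, were taken without rescaling. Read depth is unknown. TSSs were those of GENCODE release M21 on GRCm38, and promoter bases were read from that genome. Of 658 RefSeq promoter windows, 658 read the same.

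A region was named by the TSS nearest its highest summit, protein-coding genes first. Named are the 20 regions of highest fold, the 10 widest, the 6 highest per list, and those next to each limit. Some that this rule selects are not reported here. The members and gene lists were chosen with earlier results of these data known. Of the lineage lists of the study, 247 of 249 and 229 of 233 entries matched the annotation. In simulated data, 300 of 300 planted regions were returned, and bedtools also gave 3258. The scripts ran on Python 3.11.15 with pandas 2.3.3 and numpy 2.4.6, and figures were drawn with matplotlib 3.10.9.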

Additional observations from a re-analysis of the deposited data

How the results depend on the processing

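The 8 results were recomputed under 10 alternatives. The number of regions, 3258, was 1971 with pre-B peaks of at least 10-fold against all pro-T peaks and 1943 with peaks less than 5000 bp apart merged, and lay between 2195 and 4207 otherwise. The share of pre-B promoter regions without a pro-T peak, 25.2%, was 20.3% and 29.7% with windows of 1000 and 5000 bp, 17.6% with pre-B peaks of at least 10-fold, 20.4% with that limit in both lists, 19% with lists of equal length, 21.5% and 19.3% with peaks under 1000 and 5000 bp apart merged, 23.6% by summits, 22% with protein-coding TSSs, and 25.9% with IDR scores of 1000. The regions at genes marked elsewhere in pro-T, 1225, numbered 661 and 1946 with windows of 1000 and 5000 bp, 548 and 649 with at least 10-fold in pre-B or both, 638 with equal lists, and 604 and 369 with merging under 1000 and 5000 bp. The T-lineage genes, 40, were 26 with pre-B peaks of at least 10-fold. Counts of protein-coding genes (1544 to 2880) and B-lineage genes (95 to 131) stayed within 1.5 times. Fewer pre-B peaks or wider merging leave fewer regions by construction, whereas fewer pro-T peaks can leave more. The limit of 10-fold left 1971 regions when set on the pre-B list alone and 2276 when set on both lists. No paired analysis was possible because each list gives combined peaks without replicate values, and for the same reason no replicate could be left out. The unequal length of the lists, 19604 and 15513, and the unknown depth limit what absence of a peak means.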
